A study of Homo sapiens with 8 samples.

Results

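A set of 10 genes was followed in total RNA sequencing of A549 cells after silencing of NFE2L2: the aryl hydrocarbon receptor AHR, its partner ARNT, its feedback regulator TIPARP, the cytochrome P450 genes CYP1A1, CYP1B1, CYP24A1, CYP4F3, CYP4F11 and CYP2R1, and the P450 reductase gene POR. They were chosen by symbol, with earlier results of these data known. They were matched to the identifiers of the counts and are 10 of the 60291 identifiers counted. A549 is an established human lung adenocarcinoma line with defective KEAP1. KEAP1 normally marks NRF2, the transcription factor that NFE2L2 encodes, for breakdown, and these cells therefore hold much NRF2 without a stimulus. In each transfection 250000 cells received 5 nmol of an siRNA (a short RNA duplex that directs the breakdown of matching mRNAs), and RNA was taken after 48 h. The NFE2L2 siRNA group held 3 libraries, 1 for each of 3 duplexes against NFE2L2. The control siRNA group held 4 libraries, with 2 separate transfections of each of 2 non-targeting duplexes. A single mock library came from cells given the lipid reagent without siRNA and had no replicate. No group was exposed to an added AHR ligand, vitamin D or any other agent, as far as the labels and methods state, and all libraries came from the same cell line.

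AHR is a receptor in the cytoplasm that binds dioxins, polycyclic hydrocarbons and indole compounds, enters the nucleus, pairs with ARNT and switches on genes such as CYP1A1, CYP1B1 and TIPARP, the last of which encodes an enzyme that restrains AHR. Cytochrome P450 enzymes are haem proteins that oxidise drugs, pollutants, fatty acids and vitamins with electrons that POR passes on from NADPH, or that ferredoxins supply in mitochondria. NRF2 binds antioxidant response elements and drives genes of detoxification and glutathione supply, and several phase 2 enzymes are known targets of both NRF2 and AHR.

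The starts of the 2 members that fell, CYP4F11 and CYP4F3, are shown with that of CYP1A1, the textbook AHR target, so that the letters can be read beside the measurements. RefSeq windows (GRCh38.p14, 250 bases before to 50 bases after a transcription start) were matched for 7 of the 10 members, in 12 windows, and were searched on both strands for GCGTG, the core bound by AHR and ARNT, and for TGACNNNGC, the core of the antioxidant response element. Capitals mark a match. The first CYP4F11 window (chr19:15934818-15935117, minus strand) held 1 antioxidant core, 156 bases before the start and on the opposite strand. The second CYP4F11 window (chr19:15934480-15934779, minus strand) and the CYP4F3 window (chr19:15641062-15641361, plus strand) held neither motif. The CYP1A1 window (chr15:74725479-74725778, minus strand) held 1 AHR core, 57 bases before the start.
CYP4F11 window 1: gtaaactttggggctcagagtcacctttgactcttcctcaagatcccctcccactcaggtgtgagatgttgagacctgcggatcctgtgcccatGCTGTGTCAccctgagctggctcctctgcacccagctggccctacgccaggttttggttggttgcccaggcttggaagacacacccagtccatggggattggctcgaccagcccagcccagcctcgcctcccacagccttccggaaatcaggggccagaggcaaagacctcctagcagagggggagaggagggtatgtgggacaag
CYP4F11 window 2: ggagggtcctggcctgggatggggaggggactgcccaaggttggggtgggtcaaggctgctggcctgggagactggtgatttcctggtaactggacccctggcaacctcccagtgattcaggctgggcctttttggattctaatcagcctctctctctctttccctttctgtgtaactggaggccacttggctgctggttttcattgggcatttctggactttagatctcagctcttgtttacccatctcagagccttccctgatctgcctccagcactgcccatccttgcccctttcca
CYP4F3: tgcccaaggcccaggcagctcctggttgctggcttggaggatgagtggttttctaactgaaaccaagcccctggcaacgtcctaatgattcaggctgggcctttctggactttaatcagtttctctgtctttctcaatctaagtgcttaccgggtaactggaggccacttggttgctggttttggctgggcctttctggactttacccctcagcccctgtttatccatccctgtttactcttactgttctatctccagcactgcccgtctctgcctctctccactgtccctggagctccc
CYP1A1: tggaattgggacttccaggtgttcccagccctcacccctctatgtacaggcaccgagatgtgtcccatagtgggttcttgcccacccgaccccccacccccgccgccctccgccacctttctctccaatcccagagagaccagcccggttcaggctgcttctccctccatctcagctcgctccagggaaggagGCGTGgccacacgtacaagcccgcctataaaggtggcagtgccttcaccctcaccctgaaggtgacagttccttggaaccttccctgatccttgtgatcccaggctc
The window of CYP4F3 and the second window of CYP4F11 shared a run of 19 identical letters, against 7 to 9 letters between CYP4F3 and each other member window. GCGTG was also found 37 bases after the start of AHR and in 1 of the 3 windows of TIPARP, with 2 matches. TGACNNNGC was also found in ARNT, as TGACTCCGC, 183 bases before the start. No member window held both. Over all 35116 RefSeq windows, 36.5% held GCGTG and 13.4% held TGACNNNGC, so that 3 and 2 of 12 member windows are a description and not evidence of a site.

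Levels are given as CPM, the reads on a gene per 1000000 gene reads after TMM normalisation, and differences as log2 fold changes of NFE2L2 siRNA over control siRNA from the quasi-likelihood test of edgeR. The threshold was 0.01 on the p adjusted over 17811 genes, those that reached 10 reads in any of the 7 siRNA libraries. The targeted gene NFE2L2 was measured at 32.9, 52.0 and 29.7 CPM with duplexes 1, 2 and 3, against 107 to 117 CPM in the control libraries, so that 29.5%, 46.6% and 26.6% of the control mean remained. Libraries held 35525141 to 41645410 gene reads. The 5 epithelial markers summed to 8391 to 12959 CPM with NFE2L2 siRNA, 8643 to 9247 CPM in the controls and 10850 CPM in the mock library, mostly from the keratins KRT7, KRT8 and KRT18, and 0 of them were called by edgeR. Of these, CDH1 lay at 223 to 237 CPM with NFE2L2 siRNA and 100 to 193 CPM in the controls (log2 fold change 0.74, edgeR adjusted p = 0.0455, DESeq2 adjusted p = 0.00745), and EPCAM at 6.49 to 10.9 and 3.86 to 6.98 CPM (log2 fold change 0.80, edgeR adjusted p = 0.0624). The 4 markers of lung type 2 cells summed to 1.97 to 3.66 CPM over the 8 libraries, mostly NAPSA, with SFTPC at 0 to 0.161 CPM and SFTPB and NKX2-1 at 0 to 0.0705 CPM. Leukocyte markers summed to at most 0.139 CPM in any library. The summed fibroblast markers lay at 9.54 to 14.0 CPM with NFE2L2 siRNA and at 4.10 to 4.59 CPM in the controls. Of these, COL1A1 was called higher, and COL1A2 and DCN lay at 0 to 0.0705 CPM. LUM lay at 0.235 to 0.254 CPM with NFE2L2 siRNA and 0.0537 to 0.243 CPM in the controls (log2 fold change 0.85, edgeR adjusted p = 0.276). The summed endothelial markers lay at 0.615 to 0.987 and 0.215 to 0.305 CPM, with CDH5 called higher and VWF at 0.0537 to 0.135 CPM in the 7 siRNA libraries. The part of these shifts in the results was not tested.

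Of the 10 members, 9 passed the count filter, and CYP1A1 had too few reads. CYP4F11 and CYP4F3 fell and 0 members rose, so that 2 of 9 were called (22.2%). The background was 2.76% of all tested genes in either direction, 1.36% lower and 1.39% higher. The members were chosen with earlier results of these data known, so that this share is a description and not a test. DESeq2 called 3 of the 9, the same pair and CYP1B1 as higher, against a background of 7.38%. The limma-voom fit that treats the duplex as a random effect called the same 2, against 0.814%. At an unadjusted p under 0.05 the members numbered 6, with 3 lower (CYP4F11, CYP4F3 and POR) and 3 higher (AHR, ARNT and CYP1B1), where 25.0% of all tested genes passed. The median log2 fold change was 0.02 over the 9 members and 0.01 over all tested genes. In 3 members (CYP4F3, CYP4F11 and CYP2R1) all 3 NFE2L2 siRNA libraries were lower than all 4 controls, and in 1 (CYP1B1) all 3 were higher, against 11.4% and 11.9% of tested genes. The plot of the members by library shows these levels.

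**Figure D1:**
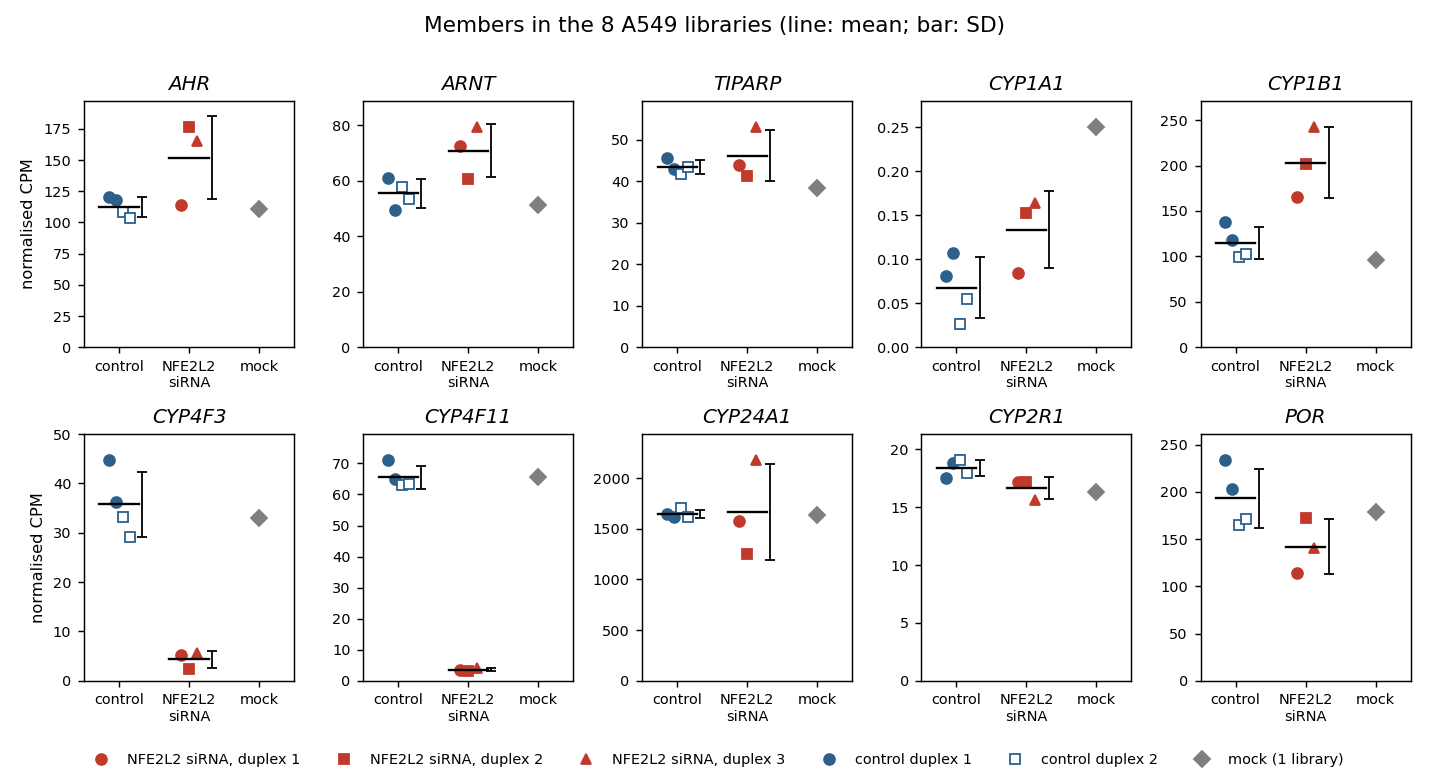
Normalised CPM of the 10 members (vertical axes, linear and starting at 0) in the control siRNA, NFE2L2 siRNA and mock libraries, 1 point for each library, with the group mean as a line and the SD as a bar. CYP4F3 and CYP4F11 lie near the axis in all 3 NFE2L2 siRNA libraries, CYP1B1 lies above all 4 controls, and the 3 NFE2L2 duplexes are spread out for AHR, CYP24A1 and POR.

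CYP4F11 changed by the widest margin among the members. This omega-hydroxylase of fatty acids, which also acts on vitamin K (ENSG00000171903.12, chr19:16023187-16045339, minus strand, GRCh37), was measured at 3.61, 3.05 and 4.21 CPM with NFE2L2 duplexes 1, 2 and 3. The control libraries held 71.0 and 64.9 CPM with control duplex 1 and 63.2 and 63.3 CPM with control duplex 2, and the mock library held 65.7 CPM. The 3 low libraries stood apart from the 5 others without overlap, and the mock level lay within the range of the controls. In reads, 129, 120 and 179 were counted with NFE2L2 siRNA against 2642, 2413, 2338 and 2285 with control siRNA. Its level was 18.1-fold lower, a log2 fold change of -4.18 (SE 0.138, 95% interval -4.48 to -3.87, edgeR adjusted p = 9.87e-07). The call held in all 21 alternative fits, with log2 fold changes of -4.30 to -4.08. In bulk RNA, fewer cells that express a gene and less RNA in each cell cannot be told apart.

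CYP4F3, known for the omega-hydroxylation that inactivates leukotriene B4 (ENSG00000186529.10, chr19:15751707-15773635, plus strand), also fell. It was measured at 5.17, 2.34 and 5.55 CPM with NFE2L2 duplexes 1, 2 and 3, at 44.7 and 36.2 CPM with control duplex 1, at 33.1 and 29.2 CPM with control duplex 2, and at 32.9 CPM in the mock library. Duplex 2, which left the most NFE2L2, gave the lowest CYP4F3 level, and the groups did not overlap. The level was 8.22-fold lower, a log2 fold change of -3.04 (SE 0.284, 95% interval -3.67 to -2.40, edgeR adjusted p = 0.000275). Reads numbered 185, 92 and 236 against 1663, 1347, 1226 and 1054. The call was lost in 1 of 21 alternatives: with control duplex 2 as the sole control, its log2 fold change was -2.84 (adjusted p = 0.0111).

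These paralogs lie in the CYP4F cluster of chromosome 19, where 249551 bases separate them and where related genes could share reads. Of the 50-base words of the Ensembl canonical transcript, 9.87% of those of CYP4F3 also occurred in transcripts of other genes, led by CYP4F2, CYP4F8 and CYP4F11, and 1.03% of those of CYP4F11. In the 426 kb from the start of CYP4F22 to the end of CYP4F11 the annotation lists 25 genes, of which 7 were tested. Of these, 3 fell and 0 rose, where 1.36% of all tested genes were called lower and 1.39% higher. The interval was set to end at CYP4F11, and CYP4F11 and CYP4F3 are among the 3, so that this share is a description. The other one that fell was ENSG00000267056, a processed pseudogene on the same strand as CYP4F11 and 552 bases past its 3′ end, with 11, 8 and 16 reads against 284 to 345 in the controls and a log2 fold change of -4.81 (SE 0.214, edgeR adjusted p = 3.45e-06). It was named after its values were seen, and whether reads that run on past the end of CYP4F11 enter its count was not tested. CYP4F12, only 10261 bases from CYP4F3 and on the same strand, was measured at 9.20, 6.54 and 11.4 CPM against 20.1, 16.9, 13.7 and 11.2 CPM. Its groups overlapped, and its log2 fold change of -0.77 (SE 0.232) did not pass the threshold (edgeR adjusted p = 0.0707). CYP4F22 and CYP4F2 had 4 to 31 and 4 to 17 reads over the 8 libraries, so that only a large difference could be detected for them. The plot of the cluster shows these 7 genes by position.

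**Figure D2:**
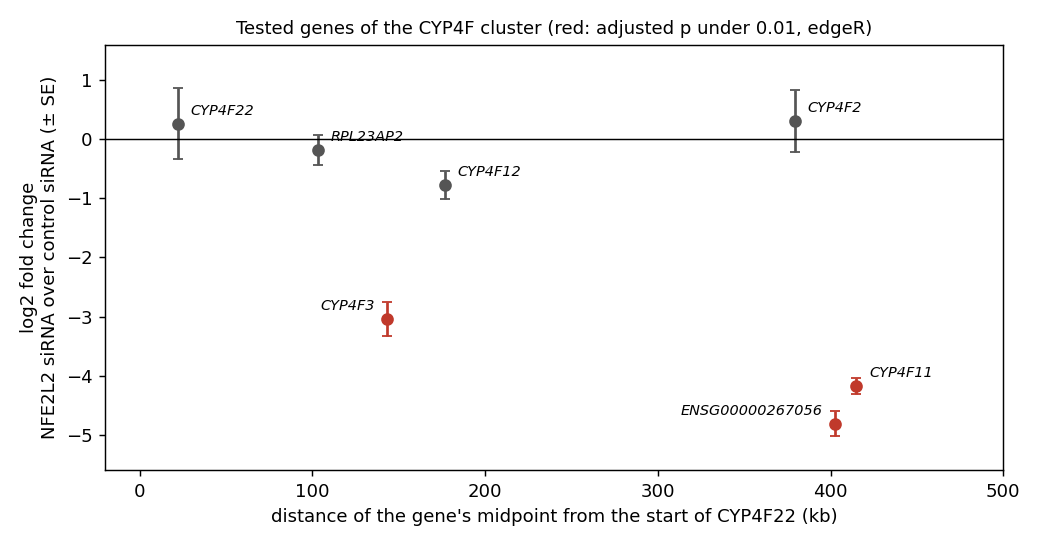
Log2 fold change of NFE2L2 siRNA (n = 3) over control siRNA (n = 4) with its SE (vertical axis) for the 7 tested genes of the CYP4F cluster, by the distance of the gene's midpoint from the start of CYP4F22 in kb. The red points CYP4F3 (-3.04), CYP4F11 (-4.18) and ENSG00000267056 (-4.81) passed the threshold, and CYP4F12 between them did not.

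Over the 8 libraries, the profile most like that of CYP4F11 among 13335 genes with a mean of at least 50 reads was that of ENSG00000267056 (Pearson r = 0.999 of log2 CPM). GCLC, which encodes the catalytic subunit of the rate-limiting enzyme of glutathione synthesis, followed with r = 0.998, and the lncRNA gene ENSG00000231683 came next, also with r = 0.998. CYP4F3 stood at rank 47 in that order (r = 0.983). The profiles most like CYP4F3 were those of TSPAN7 (r = 0.985), UGDH, which makes the sugar donor of glucuronidation (r = 0.984), and PCYT1A, an enzyme of phosphatidylcholine synthesis (r = 0.984). These correlations largely restate the gap between the 3 NFE2L2 siRNA libraries and the 5 others and are given without a test.

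CYP1B1, an AHR target that oxidises polycyclic hydrocarbons and oestrogens (ENSG00000138061.7, chr2:38294652-38303293, minus strand), showed the largest upward difference among the members. It was measured at 165, 202 and 242 CPM with NFE2L2 duplexes 1, 2 and 3, at 138 and 119 CPM with control duplex 1, at 98.9 and 103 CPM with control duplex 2, and at 95.9 CPM in the mock library. All 3 NFE2L2 siRNA libraries were above all 4 controls, the nearest pair being 165 and 138 CPM. The level was 1.77-fold higher, a log2 fold change of 0.83 (SE 0.152, 95% interval 0.49 to 1.16), with an edgeR adjusted p of 0.0106 that fell just short of the threshold. The DESeq2 adjusted p was 8.84e-05 (log2 fold change 0.82), and with the duplex as a random effect the limma adjusted p was 0.0510. Over the 21 alternatives the log2 fold change stayed between 0.65 and 1.01 and the adjusted p was under 0.01 in 6. Without NFE2L2 duplex 1 the log2 fold change was 0.95 (edgeR adjusted p = 0.00583).

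CYP1A1, the most AHR-responsive P450 gene in many tissues (ENSG00000140465.9, chr15:75011883-75017869, minus strand), was close to the limit of detection. Reads numbered 3, 6 and 7 with NFE2L2 siRNA, 3 and 4 with control duplex 1, 1 and 2 with control duplex 2, and 10 in the mock library. No siRNA library reached the 10 reads needed for a test, and 16 reads in 3 NFE2L2 siRNA libraries against 10 reads in 4 control libraries are counts on which no difference between the groups could be read. The mock library, at 0.250 CPM (exact Poisson 95% interval 0.120 to 0.460, counting error only), had the most reads of the 8. CYP1A2, the neighbouring liver enzyme of the same family, had 0 reads in every library. In the mock library the exact Poisson 95% interval for it reached up to 0.0924 CPM.

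AHR itself (ENSG00000106546.8, chr7:17338276-17385771, plus strand) was measured at 114, 177 and 165 CPM with NFE2L2 duplexes 1, 2 and 3. The controls held 120, 118, 108 and 103 CPM and the mock library 111 CPM. Duplexes 2 and 3 were above every control, whereas duplex 1 lay within their range. The mean was 152 ± 33.3 CPM (SD, n = 3) against 112 ± 8.00 CPM (SD, n = 4), a log2 fold change of 0.43 (SE 0.143, 95% interval 0.11 to 0.75) that did not pass the threshold (edgeR adjusted p = 0.0943). Without NFE2L2 duplex 1 the log2 fold change was 0.60 (adjusted p = 0.00601), the sole call in 21 alternatives, over which it ranged from 0.30 to 0.60. Of the 50-base words of AHR, 37.7% also occur in transcripts of other genes, led by the readthrough gene ENSG00000283321, which has no row in the count files.

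ARNT, the nuclear partner of AHR and of hypoxia-inducible factors (ENSG00000143437.16, chr1:150782189-150849075, minus strand), was measured at 72.5, 60.6 and 79.3 CPM with NFE2L2 siRNA, at 61.1, 49.3, 57.8 and 53.4 CPM with control siRNA and at 51.1 CPM in the mock library. Duplex 2 fell inside the control range and the other two lay above it. The log2 fold change was 0.35 (SE 0.117, 95% interval 0.09 to 0.61, edgeR adjusted p = 0.0951). TIPARP, an AHR target that modifies AHR with ADP-ribose (ENSG00000163659.8, chr3:156392379-156424559, plus strand), was measured at 43.9, 41.3 and 53.1 CPM, against 45.6, 43.0, 41.6 and 43.4 CPM in the controls and 38.4 CPM in the mock library. The groups overlapped, with duplex 3 above the rest and duplex 2 just below every control. Its log2 fold change of 0.09 (SE 0.106, edgeR adjusted p = 0.659) had a 95% interval of -0.15 to 0.32.

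Genes that act with AHR were summarised by a list of 11 (AHRR, ARNT2, chaperones, coactivators and HIF1A). All 11 were tested and 0 were called by edgeR, where 2.76% of all tested genes were called. In this list 5 had an unadjusted p under 0.05, 2 lower and 3 higher, where 25.0% of all tested genes passed, and the median log2 fold change was 0.11. DESeq2, which called 7.38% of all tested genes, called 2, which are named for that reason. PTGES3, the p23 cochaperone of the receptor, had a log2 fold change of -0.38 (edgeR adjusted p = 0.0345). HIF1A, which also pairs with ARNT, had 0.35 (edgeR adjusted p = 0.0239). Of 9 other genes of the AHR gene battery, 7 were tested, 5 fell and 0 rose, with a median log2 fold change of -2.11. Of all tested genes 1.36% were called lower and 1.39% higher. The battery list was also chosen with earlier results known and holds the silenced gene, so that its share is a description. Those that fell were NQO1, a quinone reductase (-2.19, edgeR adjusted p = 1.94e-05), ALDH3A1, an aldehyde dehydrogenase (-3.43, adjusted p = 2.21e-05), the glucuronosyltransferase genes UGT1A6 (-2.11, adjusted p = 0.00276) and UGT1A1 (-2.44, adjusted p = 0.00901), and NFE2L2, the silenced gene (-1.55, adjusted p = 0.000994). With the duplex as a random effect 3 of the 5 were called, and UGT1A6 and UGT1A1 were lost (limma adjusted p = 0.0375 and 0.128). Without NFE2L2, 4 of 6 fell. The UGT1A genes share their last exons (59.7% and 62.0% of their 50-base words occur in other genes). Reads that lie wholly within several genes were not counted, so that these levels leave out shared exons. UGT1A1 stayed under 0.433 CPM, so that its level is imprecise. IL1B was higher, at 1.99, 1.86 and 1.15 CPM against 0.430 to 0.860 CPM, with a log2 fold change of 1.56 and an edgeR adjusted p of 0.0127. AHRR, the AHR repressor and a sensitive AHR target, was measured at 1.73, 1.75 and 2.28 CPM with NFE2L2 siRNA. The controls held 0.860 and 1.24 CPM with duplex 1 and 2.51 and 2.52 CPM with duplex 2, so that the difference between the control duplexes exceeded that between the groups (log2 fold change 0.11, edgeR adjusted p = 0.877). The plot of log2 fold changes shows the members beside these lists.

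**Figure D3:**
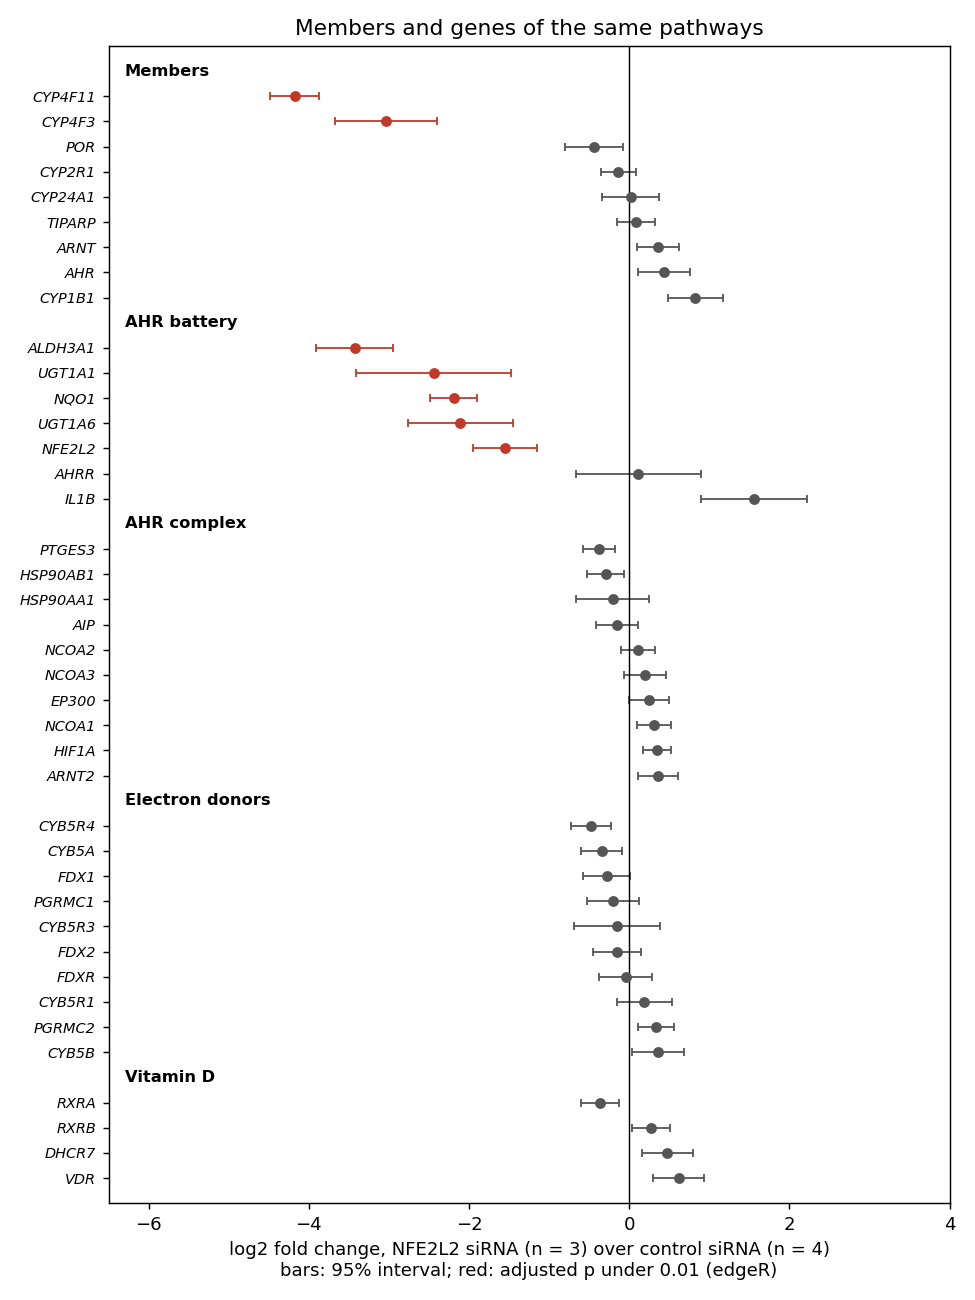
Log2 fold change of NFE2L2 siRNA (n = 3) over control siRNA (n = 4) with its 95% interval (horizontal axis) for the 9 tested members and for tested genes of the fixed lists (AHRR shown once, P450 genes of the vitamin D list left out), red where the edgeR adjusted p was under 0.01. CYP4F11 and CYP4F3 lie beside ALDH3A1, UGT1A1, NQO1 and UGT1A6 on the left, and AHR, ARNT, TIPARP and CYP1B1 lie to the right of 0 without passing the threshold.

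CYP24A1, the mitochondrial 24-hydroxylase that inactivates vitamin D (ENSG00000019186.5, chr20:52769985-52790525, minus strand), was by far the most abundant member. It was measured at 1575, 1248 and 2175 CPM with NFE2L2 duplexes 1, 2 and 3. The controls lay close together at 1644, 1616, 1703 and 1620 CPM, and the mock library held 1632 CPM. The NFE2L2 duplexes spread to both sides of the controls, with duplex 2 at 75.8% and duplex 3 at 132% of the control mean. The log2 fold change was 0.02 (SE 0.160, 95% interval -0.34 to 0.38, edgeR adjusted p = 0.963). Without duplex 3 the log2 fold change was -0.22 (adjusted p = 0.300).

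CYP2R1, the microsomal 25-hydroxylase that takes the first step of vitamin D activation (ENSG00000186104.6, chr11:14898986-14913777, minus strand), was measured at 17.2, 17.2 and 15.6 CPM with NFE2L2 siRNA, at 17.6, 18.8, 19.1 and 18.0 CPM in the controls and at 16.3 CPM in the mock library. Every NFE2L2 siRNA library was below every control, but the gap was narrow and the mock library was equally low. The log2 fold change was -0.14 (SE 0.0981, 95% interval -0.36 to 0.08, edgeR adjusted p = 0.420). Among the 8 other vitamin D genes listed, 6 were tested and 0 were called by edgeR, where 2.76% of all tested genes were called. At an unadjusted p under 0.05 there were 5 (1 lower, 4 higher), where 25.0% of all tested genes passed. The median log2 fold change was 0.37. DESeq2, which called 7.38% of all tested genes, called 1, the receptor VDR. VDR was measured at 4.03, 3.89 and 3.31 CPM against 2.29 to 2.58 CPM (log2 fold change 0.62, edgeR adjusted p = 0.0277).

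POR, the reductase that serves all microsomal P450 enzymes (ENSG00000127948.9, chr7:75544473-75616173, plus strand), was measured at 114, 172 and 140 CPM with NFE2L2 duplexes 1, 2 and 3. The controls held 233 and 203 CPM with duplex 1 and 165 and 171 CPM with duplex 2, and the mock library held 179 CPM. Duplexes 1 and 3 were below every control, whereas duplex 2 lay at the level of control duplex 2. The log2 fold change was -0.44 (SE 0.162, 95% interval -0.81 to -0.08, edgeR adjusted p = 0.125), with a range of -0.63 to -0.25 over the 21 alternatives and no call. Of 10 other electron donors and partners, 10 were tested and 0 were called by edgeR, where 2.76% of all tested genes were called. At an unadjusted p under 0.05 there were 4 (2 lower, 2 higher), where 25.0% of all tested genes passed, and the median was -0.15. DESeq2, which called 7.38% of all tested genes, called 1, CYB5R4, a cytochrome b5 reductase. CYB5R4 was measured at 27.7, 36.3 and 29.7 CPM against 42.7 to 45.1 CPM (log2 fold change -0.48, edgeR adjusted p = 0.0291).

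Compared per kb of transcript, the control levels of the members fell in the order CYP24A1 (502 RPKM), POR (78.9), CYP1B1 (22.0), CYP4F11 (21.5), AHR (18.0), ARNT (11.8), TIPARP (11.2), CYP2R1 (8.29), CYP4F3 (7.09) and CYP1A1 (0.0260 RPKM). The control ranges of CYP1B1 and CYP4F11, of CYP1B1 and AHR, of ARNT and TIPARP, and of CYP2R1 and CYP4F3 overlapped. These pairs therefore did not differ beyond their spread. Among 17073 tested genes with a transcript length, CYP24A1 ranked 102 and POR 828 in the controls, whereas CYP4F11 ranked 3323 and CYP4F3 ranked 7230. With NFE2L2 siRNA, CYP4F11 (1.19 RPKM) and CYP4F3 (0.862 RPKM) lay between CYP2R1 (7.54 RPKM) and CYP1A1 (0.0514 RPKM). CYP1B1 (38.9 RPKM) then stood at 32.8 times the level of CYP4F11, from which it could not be told apart in the controls.

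Of the 50 other protein-coding P450 genes, 23 were tested, 9 had 0 reads in all 8 libraries, 0 fell and 2 rose, with a median log2 fold change of 0.21, where 1.36% of all tested genes were called lower and 1.39% higher. DESeq2, which called 7.38% of all tested genes, called 4: CYP3A5, CYP3A7 and CYP2U1 as higher and CYP39A1 as lower. Both that rose by the edgeR test belong to the CYP3A family of drug-metabolising enzymes. CYP3A5 was measured at 29.2, 12.3 and 22.7 CPM with NFE2L2 duplexes 1, 2 and 3 against 8.27, 6.29, 8.19 and 6.15 CPM, a log2 fold change of 1.57 (SE 0.255, edgeR adjusted p = 0.00607). CYP3A7, the fetal form, had 72, 38 and 60 reads against 13, 9, 11 and 8, a log2 fold change of 2.38 (SE 0.310, edgeR adjusted p = 0.00200). Of its 50-base words, 71.8% occur in transcripts of other genes, led by the readthrough gene CYP3A7-CYP3A51P and followed by CYP3A4 and CYP3A5. In both CYP3A5 and CYP3A7, duplex 2 was the lowest of the 3 NFE2L2 siRNA libraries and still above every control. With the duplex as a random effect neither was called (limma adjusted p = 0.0851 and 0.0555). Without the second transfection of control duplex 1 or the first of control duplex 2, 0 of the other P450 genes were called. The 10 with a mean of at least 100 reads were CYP3A5, CYP20A1, CYP26B1, CYP27C1, CYP2S1, CYP2U1, CYP4F12, CYP4V2, CYP51A1 and CYP7B1. Of these, CYP2U1, a fatty acid hydroxylase, was above every control (log2 fold change 0.55, edgeR adjusted p = 0.0184), and CYP26B1, which breaks down retinoic acid, was below every control (log2 fold change -0.49, adjusted p = 0.0535). CYP39A1, an oxysterol hydroxylase with a lower mean and named because DESeq2 called it, was measured at 1.62, 1.70 and 1.81 CPM against 3.71, 3.01, 2.89 and 2.63 CPM, all below the controls (log2 fold change -0.84, SE 0.170, edgeR adjusted p = 0.0170, DESeq2 adjusted p = 0.000924). The others of the 10 ranged from -0.77 (CYP4F12) to 0.69 (CYP27C1), leaving out CYP3A5. The nuclear receptors NR1I2 and NR1I3, which drive CYP3A genes in liver, had 0 to 2 reads per library. Of the 5 xenobiotic receptors listed, 3 were tested and 0 called by edgeR, where 2.76% of all tested genes were called. The median was -0.36, with 2 lower at an unadjusted p under 0.05 (25.0% of all tested genes passed). DESeq2, which called 7.38% of all tested genes, called HNF4A (log2 fold change -1.04, edgeR adjusted p = 0.0456). Its mean was 63.3 CPM with control duplex 1 and 37.6 CPM with control duplex 2. Against control duplex 2 in the fit with 3 groups, its log2 fold change was -0.61 (edgeR adjusted p = 0.224). With the duplex as a random effect the limma adjusted p was 0.171. The plot of P450 genes sets level against change.

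**Figure D4:**
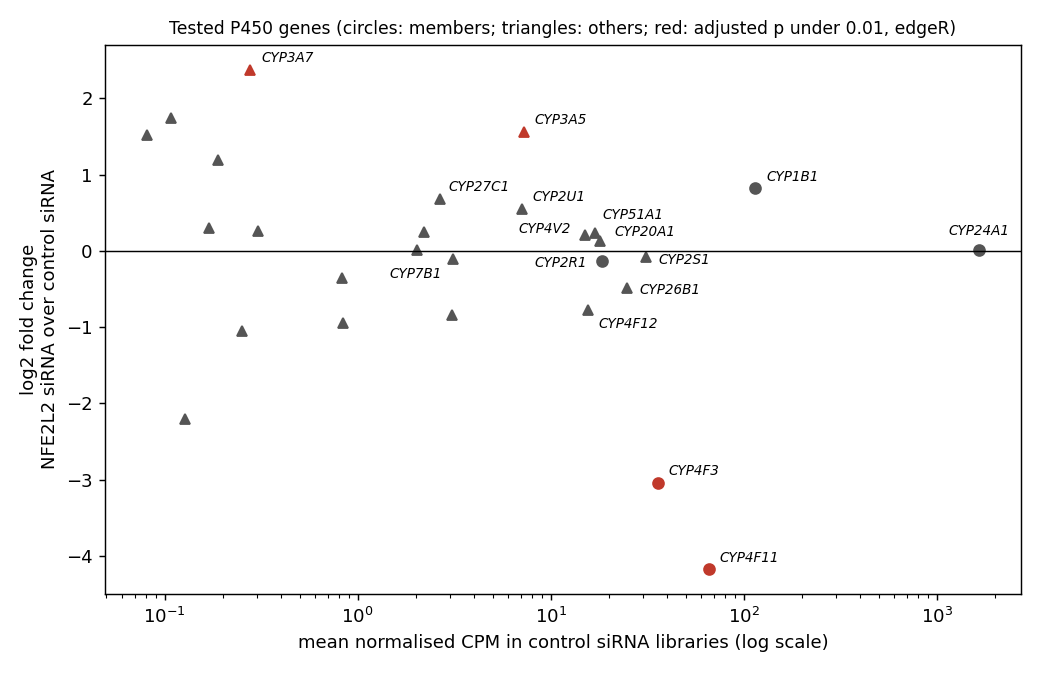
Log2 fold change of NFE2L2 siRNA over control siRNA (vertical axis) against the mean control CPM (horizontal axis, log scale) for the 28 tested P450 genes, 5 of them members (circles). CYP4F11 (-4.18) and CYP4F3 (-3.04) are the lowest points, CYP3A5 (1.57) and CYP3A7 (2.38) passed the threshold upwards, and CYP24A1 lies farthest to the right at a log2 fold change of 0.02.

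The 2 control duplexes, neither of which targets NFE2L2, gave 1 difference between duplexes, which need not match the spread among the NFE2L2 duplexes. For CYP24A1 the control duplexes differed by a log2 fold change of 0.03. Its NFE2L2 siRNA libraries ran from 1248 to 2175 CPM, against 1616 to 1703 CPM in the controls. In the fit with 3 groups, 0 members were called between control duplex 2 and control duplex 1, with log2 fold changes of -0.38 to 0.03 and a smallest edgeR adjusted p of 0.734, and 0 members had an unadjusted p under 0.05. Over all genes 0.00% were called and 7.26% had an unadjusted p under 0.05. As this fit called no gene at all, the lack of a called member says little. With the 4 control libraries alone, 3.28% of genes but still 0 members were called. The NFE2L2 siRNA libraries were then set against each control duplex, comparisons that share the NFE2L2 siRNA libraries. Against control duplex 1, where 1.79% of genes were called, CYP4F11 and CYP4F3 were called, with log2 fold changes of -3.21 for CYP4F3 (edgeR adjusted p = 0.00124) and 0.66 for CYP1B1 (adjusted p = 0.0496). Against control duplex 2, where 0.853% were called, the same 2 were called, with -2.84 for CYP4F3 (adjusted p = 0.00270) and 1.01 for CYP1B1 (adjusted p = 0.0186). CYP1B1 itself differed between the control duplexes by a log2 fold change of -0.35 (SE 0.176, adjusted p = 0.753). The mock library lay within the control range for 6 members, below it for 3 (TIPARP, CYP1B1 and CYP2R1) and above it for 1 (CYP1A1).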

How the data were processed

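Total RNA of A549 cells was sequenced in 8 strand-specific, ribosomal RNA-depleted libraries. The authors aligned the reads to hg19 with HISAT 0.1.6 and deposited counts, the whole number of reads that HTSeq 0.6.0 assigned to each gene of GENCODE v19 on the reverse strand, in its strict intersection mode and without normalisation. In that mode a read is counted only where exactly 1 gene covers its whole length. The paper states that a RefSeq model was used for an lncRNA gene, so that not all 60291 identifiers need be GENCODE v19 genes. Unassigned reads, 34.4 to 39.7% of each file, were left out of library sizes.

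Counts were normalised by TMM and tested with glmQLFit and glmQLFTest of edgeR 4.0.16 (R 4.3.3, prior count 0.125), two-sided, for genes that reached 10 reads in any of the 7 siRNA libraries, with Benjamini-Hochberg adjustment over 17811 genes and a threshold of 0.01. SE was obtained by dividing the size of the log2 fold change by the root of the F statistic, and 95% intervals use the t distribution with the fitted degrees of freedom. Printed CPM values used 1 set of TMM factors over all 8 libraries. Control duplexes were compared in a fit with 3 groups. Alternatives were DESeq2 1.42.0 (the tool of the study's methods), limma 3.58.1 with voom, with and without the duplex as a random effect (estimated correlation 0.757), other scalings, filters on low counts, a robust fit, a threshold of 0.05, changed control groups and leaving out each library. The fits were tested on simulated counts with 200 changed genes. Libraries of 1 group differed by more than sampling noise and were kept as separate samples. The edgeR p-values pool the spread between repeats of a control duplex with that between different NFE2L2 duplexes. Repeats of 1 duplex are not independent duplexes, so these p-values can be too small. With the duplex as a random effect 145 genes were called, against 491.

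Symbols were taken from the v44 release of GENCODE on GRCh37, which held 55538 of the 60291 identifiers. Positions and lengths are those of the Ensembl canonical transcript. RPKM is CPM per kb of that transcript. Overlaps were searched as shared 50-base words among annotated transcripts. Promoter windows are from RefSeq (GRCh38.p14), with none matched for CYP1B1, CYP24A1 or POR, and motif letters do not show binding. Precision of a count is limited by depth, and the interval given for a single library covers counting error only.

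The members and the lists (AHR complex, AHR battery, electron donors, vitamin D, xenobiotic receptors, other P450 genes, cell markers) were chosen with earlier results of these data known. All members were named. Of the lists, genes past the threshold, NFE2L2 and other P450 genes with a mean of at least 100 reads were named, and others only where the text gives the reason. IL1B, AHRR and CYP1A2 were named after their values were seen. The marker PECAM1 was not matched. No protein sequences were used here.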

Additional observations from a re-analysis of the deposited data

Results flagged for a closer look

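CYP1A1 in the mock library was singled out because this library takes no part in the tests and held more than any control: 0.250 CPM from 10 reads, against 0.0270 to 0.108 CPM from 1 to 4 reads in the 4 control siRNA libraries. It is a single library, and all 10 members were examined in it. Gaps between the 4 control libraries were also examined for 26 genes named in the text, of which chance would be expected to single out about 5%, and 0 passed Dixon's limit for 4 samples.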

How the results depend on the processing

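The fall of CYP4F11 held in all 21 alternatives and that of CYP4F3 in 20, the exception being control duplex 2 alone (-2.84, adjusted p = 0.0111). CYP1B1 passed the threshold with DESeq2 (0.82), library size alone (0.86), a filter of 1 read (0.81), a threshold of 0.05 (0.83), a robust fit (0.83), the mock library among the controls (0.87) and without NFE2L2 duplex 1 (0.95). CYP24A1 changed sign with limma-voom (-0.0200), with the duplex as a random effect (-0.0202) and without NFE2L2 duplex 3 (-0.22), and TIPARP did without duplex 3 (-0.0259), none of them past the threshold. AHR passed the threshold without NFE2L2 duplex 1 (0.60). For these, the cause was not tested.

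Genes called over all, 491 in the reported fit, numbered 1314 with DESeq2, 145 with the duplex as a random effect (84.1% lower), 1019 with a filter of 1 read, 1456 at 0.05, 120 against control duplex 1 alone, 59 against duplex 2 alone, 78 with control duplexes summed and 772 with the mock added. Members called, 2 as reported, numbered 1 against control duplex 2 alone. Other P450 genes called, 2 as reported, numbered 4 with DESeq2, at 0.05 or with the mock added, 1 with limma-voom and 0 with the duplex as a random effect, with either control duplex alone or with duplexes summed. AHR complex and battery genes, 5 as reported, numbered 8 with DESeq2 or at 0.05, 3 with the random effect, and 2 with either control duplex alone or duplexes summed. Electron donor and vitamin D genes, 0 as reported, numbered 2 with DESeq2 or at 0.05. Between the control duplexes, 0 genes as reported became 10 at 0.05 and 566 with the 4 control libraries alone. Fits with fewer control samples have fewer degrees of freedom.

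Leaving out each of the 7 libraries in turn gave 163 to 915 genes, with the lowest without the second transfection of control duplex 1 and the highest without NFE2L2 duplex 2; the count was 238 without NFE2L2 duplex 3, and 277, 198 and 221 without the first transfection of control duplex 1 and the first and second of duplex 2. It gave 2 to 4 members (4 without NFE2L2 duplex 1), 0 to 2 other P450 genes (0 without the second transfection of control duplex 1 or the first of duplex 2, and 1 without NFE2L2 duplex 3 or either other control library), 3 to 5 AHR complex and battery genes (3 without NFE2L2 duplex 3 or the second transfection of control duplex 1) and 0 to 1 electron donor and vitamin D genes (1 without NFE2L2 duplex 2). The log2 fold changes spanned 0.68 to 0.95 for CYP1B1, -0.22 to 0.17 for CYP24A1, -0.03 to 0.15 for TIPARP and 0.30 to 0.60 for AHR.

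No paired analysis was possible because a number in the label stands for a duplex in the NFE2L2 siRNA group and for a repeat of one duplex in the control group, so that like numbers pair nothing. At 1 to 10 reads CYP1A1 could not be compared at this depth.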
